A study of Homo sapiens with 8 samples.

Results

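The GAGE and PAGE genes examined here are 6 members of the X-linked GAGE superfamily of cancer-testis genes: GAGE12E, PAGE1, PAGE2, PAGE2B, PAGE3 and PAGE5. They were found by taking each probe whose annotated symbol, old or updated, is 1 of these names. That gave 8 probes of the 48107 on the array and 6 of its 20044 named genes. GAGE12E, PAGE1, PAGE2, PAGE2B and PAGE3 had 1 probe each and PAGE5 had 3. All 6 genes and 7 of the 8 probes passed the filter on dim probes, which kept probes detected (p under 0.05) on 2 or more arrays. The third PAGE5 probe was detected on 1 array and did not pass. The members were chosen by their measured log2 differences between HC/KA-SETDB1 OE and empty vector, so the values of that comparison describe them and support nothing.

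Cancer-testis genes are active in germ cells of the testis, are silent in most other adult tissues, and are switched on again in many tumours, melanoma among them. Many lie on the X chromosome in clusters of near-identical copies, and DNA methylation of their promoters is a well-known part of their silencing. GAGE proteins were first found as tumour antigens recognised by cytotoxic T cells on melanoma cells, and what most GAGE and PAGE proteins do inside the cell is not well understood. SETDB1 is an enzyme that methylates lysine 9 of histone H3, a mark of repressed chromatin.

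The study measured HT144, an established human melanoma cell line whose source the labels give as a metastasis, with 1 Illumina bead array per sample. The 8 samples fall into 3 groups: 3 with an empty vector, 2 made to overexpress SETDB1 (SETDB1 OE) and 3 made to overexpress a mutant SETDB1 (HC/KA-SETDB1 OE). All of them share the HT144 background, and the labels give neither the promoter that drives the constructs nor whether the cells were clones or pools. No source used here says what HC/KA stands for. Whether the replicates are separate cultures is not stated either, so a p-value here covers the spread among these arrays, and that spread may be technical.

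The median intensity was 89 to 94.4 per array, and 44.6% to 45.7% of the probes were detected. Background SD was 25.9 on empty vector replicate 2, 13.7 on SETDB1 OE replicate 1 and 4.58 to 6.77 on the other arrays. HC/KA-SETDB1 OE replicate 2 stood apart: over all genes it correlated at 0.987 with empty vector replicate 3, against 0.961 and 0.978 with the arrays of its own group. HC/KA-SETDB1 OE replicate 1 correlated at 0.97 with empty vector replicate 1, against 0.961 and 0.969 within its group. The probe of the targeted gene did not follow 1 label. The sources used here do not say whether the overexpressed construct holds the probe's sequence, so it may not read RNA of the construct. The SETDB1 probe read a log2 level of 8.25, 8.19 and 8.04 with empty vector, 8.0 and 7.66 with SETDB1 OE, and 8.32, 8.42 and 9.0 with HC/KA-SETDB1 OE. The SETDB1 OE arrays were therefore the lowest, with a difference of -0.33 from empty vector (SE 0.24, limma adjusted p = 0.692), so they are called arrays labelled SETDB1 OE, and directions drawn from them rest on the label. Of the melanoma lineage markers, 7 of 8 were on the array and all 7 were detected on all 8 arrays. Of 9 testis and germ cell markers none was detected on all 8 arrays, and DDX4, PRM1, PRM2 and TNP1 were detected on no array.

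The promoter windows of 5 members are printed here because they show which members are copies of each other. Each window runs from 250 bases before to 50 bases after the gene's start, 5′ to 3′ on the gene's strand, from RefSeq on GRCh38.p14, with CpG dinucleotides in capitals. All 6 members matched the RefSeq table. PAGE2 lies at chrX:55088768-55089067 on the plus strand, PAGE2B at chrX:55074780-55075079 (plus) and PAGE5 at chrX:55220096-55220395 (plus). GAGE12E lies at chrX:49551039-49551338 (plus) and PAGE1 at chrX:49695935-49696234 (minus).
PAGE2: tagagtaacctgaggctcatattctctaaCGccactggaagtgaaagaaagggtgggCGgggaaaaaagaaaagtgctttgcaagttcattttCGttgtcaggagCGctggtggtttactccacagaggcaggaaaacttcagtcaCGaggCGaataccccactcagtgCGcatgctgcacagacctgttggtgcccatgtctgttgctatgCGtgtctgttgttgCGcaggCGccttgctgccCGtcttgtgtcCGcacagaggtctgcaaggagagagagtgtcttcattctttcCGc
PAGE2B: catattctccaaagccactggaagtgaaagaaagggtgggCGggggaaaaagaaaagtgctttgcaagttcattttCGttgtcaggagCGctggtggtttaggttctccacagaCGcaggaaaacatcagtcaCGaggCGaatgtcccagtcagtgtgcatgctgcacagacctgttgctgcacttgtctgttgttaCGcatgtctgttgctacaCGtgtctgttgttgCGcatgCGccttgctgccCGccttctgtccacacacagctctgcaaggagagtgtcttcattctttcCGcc
PAGE5: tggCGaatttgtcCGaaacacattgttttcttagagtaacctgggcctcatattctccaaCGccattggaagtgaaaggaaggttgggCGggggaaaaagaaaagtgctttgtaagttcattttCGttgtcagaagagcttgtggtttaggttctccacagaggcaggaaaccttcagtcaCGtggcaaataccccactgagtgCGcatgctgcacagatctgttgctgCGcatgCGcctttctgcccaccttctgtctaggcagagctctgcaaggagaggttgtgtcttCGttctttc
GAGE12E: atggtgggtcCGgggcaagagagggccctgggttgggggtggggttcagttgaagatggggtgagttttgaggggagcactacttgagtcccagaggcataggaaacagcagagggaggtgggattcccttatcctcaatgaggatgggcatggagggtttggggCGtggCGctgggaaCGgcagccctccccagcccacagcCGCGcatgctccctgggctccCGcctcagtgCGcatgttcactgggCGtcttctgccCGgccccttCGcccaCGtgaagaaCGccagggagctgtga
PAGE1: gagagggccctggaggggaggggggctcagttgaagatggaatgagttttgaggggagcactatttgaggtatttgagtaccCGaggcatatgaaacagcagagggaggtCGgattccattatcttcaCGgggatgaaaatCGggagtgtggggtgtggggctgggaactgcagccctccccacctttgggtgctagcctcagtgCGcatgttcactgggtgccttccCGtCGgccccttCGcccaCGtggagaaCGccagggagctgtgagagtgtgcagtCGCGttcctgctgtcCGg

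The PAGE2 and PAGE2B windows were the most alike of these, with 85.8% identity over 303 aligned columns. PAGE5 was 78.1% identical to PAGE2 over 301 columns and 74.0% to PAGE2B over 300 columns. GAGE12E and PAGE1, which lie in the other cluster, were 76.3% identical over 291 columns. Near-identical relatives are closer still in the GAGE cluster. Of the other 11 GAGE promoter windows in the table, 6 (GAGE12C, GAGE12D, GAGE12F, GAGE12H, GAGE12J and GAGE2A) had the same sequence as GAGE12E, and GAGE10 was the least alike at 89.3%. The probes of such copies may read each other's transcripts, so a value for GAGE12E, PAGE2 or PAGE2B may include RNA of its relatives.

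CpG content differed among the windows. They held 13 CpG in GAGE12E, PAGE1 and PAGE2, 12 in PAGE2B, 10 in PAGE5 and 5 in PAGE3. Over all 35116 promoters of the table the median was 14, with quartiles of 4 and 28. Of 4 motifs searched on both strands, the GC box GGGCGG was found in PAGE2, PAGE2B and PAGE5 and is in 45.0% of all promoters. The E-box CACGTG was found in GAGE12E, PAGE1, PAGE2B and PAGE5 and is in 7.3% of all promoters. The ETS core CCGGAAG (10.3% of all promoters) and TATAAA (11.5%) were in none of the 6 windows. These letters are a description of the windows and locate no bound factor.

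PAGE2 and PAGE2B, the closely related pair of the PAGE cluster, had their highest levels with empty vector and their lowest with HC/KA-SETDB1 OE. The bead intensity of PAGE2 before normalization was 400.8, 1006.7 and 241 in empty vector replicates 1, 2 and 3. It was 157.4 and 473.6 in the SETDB1 OE-labelled arrays, and 85.7, 86.5 and 83.3 with HC/KA-SETDB1 OE. PAGE2 was detected on all 5 arrays of the first 2 groups and on none of the 3 HC/KA-SETDB1 OE arrays, where it is not well above background. Empty vector and the arrays labelled SETDB1 OE overlapped, and every HC/KA-SETDB1 OE array lay below all 5. All levels from here on are log2 intensities after background correction and quantile normalization. On that scale PAGE2 was at 8.46, 9.85 and 7.35 with empty vector, 6.29 and 8.55 in the SETDB1 OE-labelled arrays, and 4.52, 4.5 and 4.49 with HC/KA-SETDB1 OE.

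PAGE2B followed the same order and was detected on all 8 arrays. It was at 8.73, 9.93 and 8.0 with empty vector (mean 8.89 ± 0.98, SD, n = 3). The arrays labelled SETDB1 OE were at 7.04 and 9.14. HC/KA-SETDB1 OE lay at 5.71, 5.97 and 5.40 (mean 5.70 ± 0.29, SD, n = 3), below all other arrays. In both genes empty vector replicate 2 was the highest of the 8 arrays, and the arrays labelled SETDB1 OE differed from each other by more than their mean differed from empty vector.

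**Figure D1:**
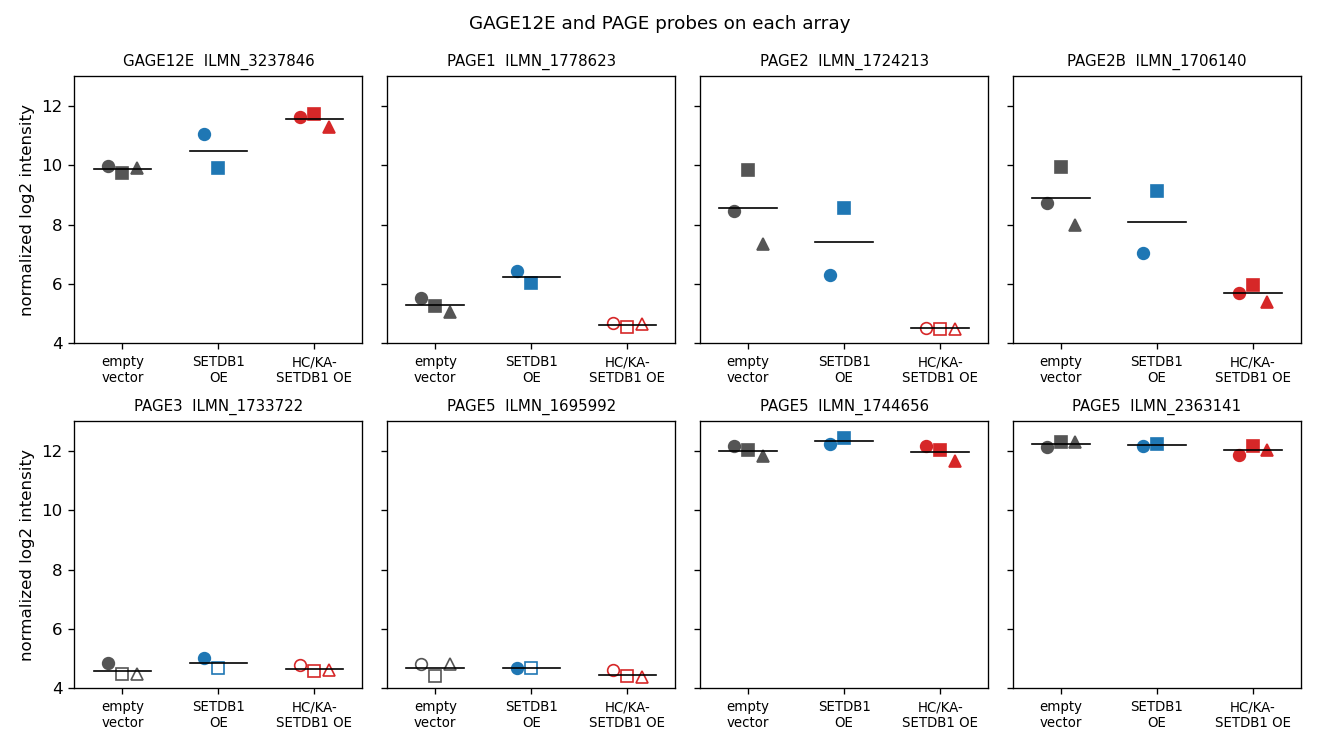
Normalized log2 intensity of the 8 member probes on each of the 8 arrays, by group. Filled points were detected at p under 0.05, open points were not, the marker shape is the replicate number and the line is the group mean. PAGE2 lies at open points near 4.5 on the 3 HC/KA-SETDB1 OE arrays, while the bright PAGE5 probes lie near 12 in every group.

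In the comparison of the arrays labelled SETDB1 OE with empty vector, PAGE2 had a log2 difference of -1.14 (SE 0.70, limma adjusted p = 0.609, n = 2 and 3). PAGE2B had -0.80 (SE 0.61, adjusted p = 0.704 in the same fit). Neither passed the test, and 1 array decided each value. Without SETDB1 OE replicate 1 the PAGE2 difference was -0.01 and that of PAGE2B 0.25, and without SETDB1 OE replicate 2 the PAGE2 difference was -2.27. Without empty vector replicate 2 it was -0.49.

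Against empty vector, HC/KA-SETDB1 OE had at least 15.9-fold lower PAGE2 and 9.13-fold lower PAGE2B in the main normalization. The PAGE2 fold is a bound because PAGE2 was not detected with HC/KA-SETDB1 OE. The fitted log2 differences were -4.05 (SE 0.62) for PAGE2 and -3.19 (SE 0.54) for PAGE2B. These 2 genes and GAGE12E, described below, are the 3 of 6 members called in that comparison, in which 0.322% of all tested genes were called, and since the members were chosen there nothing is read from that count. Without HC/KA-SETDB1 OE replicate 2, which stood apart, the differences were -4.04 and -3.33 and the calls held. Without HC/KA-SETDB1 OE replicate 1 they were -4.05 and -3.20. Without empty vector replicate 2, the array with the highest background SD, they were -3.40 and -2.67. The calls did not hold without replicate 1 or 2 of empty vector, or without replicate 1 or 3 of HC/KA-SETDB1 OE, each of which left 0 of the 6 members called, and without empty vector replicate 3 only 1 was called. None of the 6 was called either with no background correction, with an offset of 50, with the authors' processed values or with no filter on dim probes, and with no background correction PAGE2 was at -2.42 and PAGE2B at -2.18. In bulk samples such as these, fewer cells with a transcript and less transcript per cell cannot be told apart.

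The arrays labelled SETDB1 OE had at least 7.26-fold higher PAGE2 than HC/KA-SETDB1 OE, with a log2 difference of 2.91 (SE 0.70). That size depends on the background correction: without it the difference was 1.58, and 1.51 with the authors' processed values. The difference of PAGE2B was 2.39 (SE 0.61), or 1.55 with no background correction. It was 3.44 without SETDB1 OE replicate 1 and 1.34 without SETDB1 OE replicate 2. PAGE2 was called in this comparison and PAGE2B was not, although with the replicate number as a block PAGE2B was called at 2.10. PAGE2 moved from 4.04 without SETDB1 OE replicate 1 to 1.78 without SETDB1 OE replicate 2. It lost its call without either of these arrays, without empty vector replicate 1 and without HC/KA-SETDB1 OE replicate 3. The call was also lost with no background correction, an offset of 50, the authors' processed values or no filter on dim probes. The same held with every passing probe tested or only those groups in the fit. The comparison shares the mutant arrays with that of the choice and is given as a description.

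PAGE1, which lies beside the GAGE cluster, was dim and had another order of groups. Its levels were 5.53, 5.27 and 5.06 with empty vector, 6.43 and 6.04 in the SETDB1 OE-labelled arrays, and 4.69, 4.54 and 4.66 with HC/KA-SETDB1 OE. It was detected on all 5 arrays of the first 2 groups and on no HC/KA-SETDB1 OE array. The 3 groups did not overlap: the arrays labelled SETDB1 OE were highest and HC/KA-SETDB1 OE lowest. The means were 5.28 ± 0.24 (SD, n = 3), 6.23 ± 0.28 (SD, n = 2) and 4.63 ± 0.08 (SD, n = 3).

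PAGE1 was 1.93-fold higher in the arrays labelled SETDB1 OE than with empty vector, a log2 difference of 0.95 (SE 0.22). It did not pass the adjustment over all genes (limma adjusted p = 0.123), although both arrays lay above all 3 empty vector arrays, as did 15.7% of all tested genes. Of the 6 members 0 were called in this comparison by limma and 1, PAGE1, had an unadjusted p under 0.05. Over all tested genes 0.265% were called and 10.8% had an unadjusted p under 0.05. With array weights, PAGE1 was called at 0.98 (adjusted p = 0.0427). The choice of members did not use this comparison, which shares its empty vector arrays with the one that it did use.

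Against empty vector, PAGE1 was at least 1.57-fold lower with HC/KA-SETDB1 OE (log2 difference -0.65, SE 0.19) and was not called. The arrays labelled SETDB1 OE were at least 3.03-fold above HC/KA-SETDB1 OE (1.60, SE 0.22). That makes PAGE1 and PAGE2 the 2 of 6 members called between these groups, beside 4.34% of all tested genes. Their arrays, like those of PAGE2B, lay higher with no overlap, as did 17.8% of all tested genes. Without SETDB1 OE replicate 1 the PAGE1 difference was 1.40 and was no longer called. As a dim gene PAGE1 depended on the background correction in all 3 comparisons. With none, its log2 difference was 0.43 for the SETDB1 OE-labelled arrays against empty vector, -0.26 for the mutant against empty vector and 0.69 between them. With the authors' processed values these were 0.39, -0.24 and 0.63, so the folds above hold for the main normalization.

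PAGE5, a member of the same cluster as PAGE2, was detected far above background and differed little between groups. The probe of highest mean, which stands for the gene, read 12.13, 12.28 and 12.29 with empty vector. It read 12.16 and 12.23 in the SETDB1 OE-labelled arrays and 11.87, 12.17 and 12.02 with HC/KA-SETDB1 OE. The second passing probe lay at 12.17, 12.01 and 11.83, then 12.22 and 12.43, then 12.17, 12.01 and 11.64 in the same order. The groups overlapped on both probes except that the second was higher on both arrays labelled SETDB1 OE than on all other arrays. The first probe gave a log2 difference of -0.04 (SE 0.19, limma adjusted p = 0.966) for the arrays labelled SETDB1 OE against empty vector and the second 0.32 (SE 0.22, adjusted p = 0.720 over probes).

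For HC/KA-SETDB1 OE against empty vector the PAGE5 difference was -0.21 (SE 0.17) by the first probe and -0.06 (SE 0.20) by the second. Neither was called. The third PAGE5 probe, which did not pass the filter, read between 4.38 and 4.83 on the 8 arrays. It disagreed with the other PAGE5 probes on whether the gene is detected in these cells, and the sources used here do not say which transcript each probe reads.

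PAGE3, the neighbour of PAGE5, was near the detection limit throughout. It was at 4.84, 4.47 and 4.49 with empty vector, 5.01 and 4.69 in the SETDB1 OE-labelled arrays, and 4.79, 4.58 and 4.62 with HC/KA-SETDB1 OE. It was detected on 1 empty vector array, 1 array labelled SETDB1 OE and 0 HC/KA-SETDB1 OE arrays. All 3 groups overlapped. The differences from empty vector were 0.25 (SE 0.21, limma adjusted p = 0.744) for the SETDB1 OE-labelled arrays and 0.06 (SE 0.19) with HC/KA-SETDB1 OE, and both turn sign under another scaling (-0.01 and -0.22 when arrays were scaled by their 75th percentile).

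**Figure D2:**
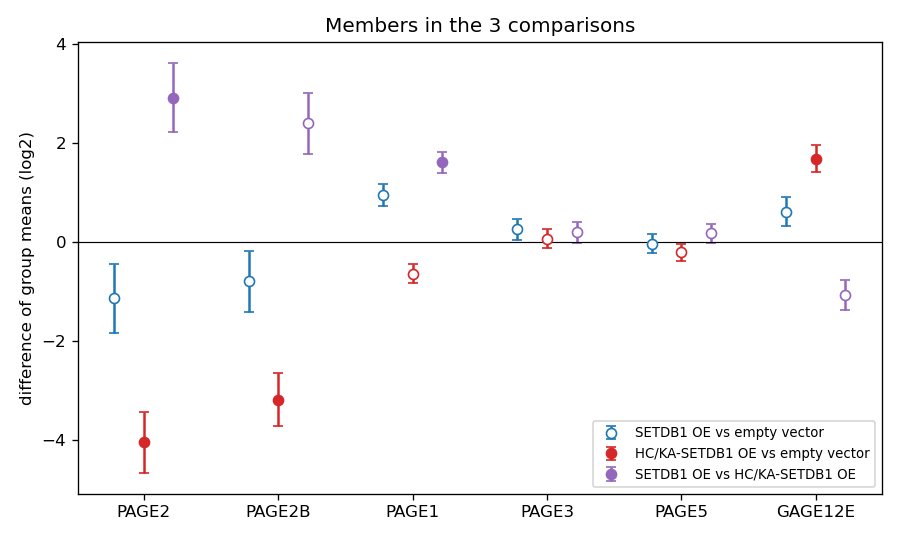
Log2 difference between groups for each of the 6 members in the 3 comparisons, with bars of 1 SE from the limma fit. Filled points were called at an adjusted p under 0.05. PAGE2 and PAGE2B lie furthest below 0 for HC/KA-SETDB1 OE against empty vector, GAGE12E lies above 0, and PAGE5 and PAGE3 lie near 0.

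GAGE12E moved the other way from PAGE2 and PAGE2B. It was at 9.96, 9.73 and 9.89 with empty vector (mean 9.86 ± 0.12, SD, n = 3). The arrays labelled SETDB1 OE were at 11.04 and 9.90, and HC/KA-SETDB1 OE at 11.61, 11.71 and 11.29 (mean 11.54 ± 0.22, SD, n = 3). All 3 HC/KA-SETDB1 OE arrays lay above the other 5, SETDB1 OE replicate 1 came next, and SETDB1 OE replicate 2 lay within the empty vector range. GAGE12E was detected on all 8 arrays.

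For HC/KA-SETDB1 OE against empty vector GAGE12E was 3.2-fold higher (log2 difference 1.68, SE 0.27), and it was called, as it was without HC/KA-SETDB1 OE replicate 2 (1.59). The call was lost without any single empty vector array and without replicate 1 or 3 of HC/KA-SETDB1 OE. It was also lost with no background correction, an offset of 50, the authors' processed values, no filter on dim probes or every passing probe tested. The difference ranged from 1.59 to 1.80 over the alternatives. The arrays labelled SETDB1 OE differed from empty vector by 0.61 (SE 0.30, limma adjusted p = 0.512). That value was 0.04 without SETDB1 OE replicate 1 and 1.18 without SETDB1 OE replicate 2. Its difference between the SETDB1 OE-labelled and mutant arrays was -1.07 (SE 0.30) and was not called. It was -1.64 without SETDB1 OE replicate 1 and -0.50 without SETDB1 OE replicate 2. Thus GAGE12E lay apart from empty vector in HC/KA-SETDB1 OE, as 8.48% of all genes lay higher without overlap, while PAGE1, PAGE2 and PAGE2B were among the 8.38% of genes that lay lower without overlap. The choice of members fixes these directions.

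The relatives of GAGE12E on the array were also higher with HC/KA-SETDB1 OE than with empty vector. With GAGE12E, 12 GAGE genes passed the filter: GAGE2A, GAGE4, GAGE7, GAGE10, GAGE12B, GAGE12C, GAGE12D, GAGE12E, GAGE12F, GAGE12G, GAGE12H and GAGE12J. GAGE4 and GAGE7 keep the names of the array annotation, since their gene identifiers were not matched in the RefSeq table. GAGE12D, the GAGE gene with the largest difference between HC/KA-SETDB1 OE and empty vector, was at 8.29, 8.50 and 8.57 with empty vector, 9.78 and 8.39 in the SETDB1 OE-labelled arrays and 10.43, 10.43 and 9.56 with HC/KA-SETDB1 OE. GAGE7 was at 10.96, 10.44 and 11.05, then 11.91 and 10.54, then 12.37, 12.46 and 12.25 in the same order. In both genes SETDB1 OE replicate 1 resembled HC/KA-SETDB1 OE more than SETDB1 OE replicate 2 did.

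In HC/KA-SETDB1 OE against empty vector, all 12 GAGE genes were higher without overlap, as were 8.48% of all tested genes. Their median log2 difference was 1.13, from 0.75 in GAGE12C to 1.69 in GAGE12D. The median over all tested genes was 0.01. Of the 12, 1 was called (GAGE12E) against 0.322% of all genes, and 3 were called with a replicate block and 4 with only those groups in the fit. None of the 12 was called with no background correction, an offset of 50, the authors' processed values, no filter or each probe tested, nor without any 1 empty vector array or without replicate 1 or 3 of HC/KA-SETDB1 OE. Without either array labelled SETDB1 OE 4 were called. Since a probe may also read RNA of a relative, the 12 may not be separate measurements. In the arrays labelled SETDB1 OE against empty vector, all 12 differences were positive, with a median of 0.54 against -0.0011 over all genes. None of the 12 was called, and 2 of them (GAGE4 and GAGE12G) did not overlap, against 15.7% of all genes. Without SETDB1 OE replicate 1 that median was 0.02, with 7 of 12 positive.

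Array by array, the GAGE genes split the arrays labelled SETDB1 OE. The median difference of the 12 from their own empty vector means was 1.06 on SETDB1 OE replicate 1, where all 12 lay above the highest empty vector array, as did 30.8% of all genes. On SETDB1 OE replicate 2 it was 0.02, with 2 of 12 above the highest empty vector array beside 26.8% of all genes. On HC/KA-SETDB1 OE replicates 1, 2 and 3 it was 1.27, 1.28 and 0.88, and all 12 lay above on each, beside 31.2%, 28.9% and 34% of all genes. The brightest GAGE probe reached 39.9% to 47.6% of the array's highest intensity with empty vector and 54.2% to 80.6% with HC/KA-SETDB1 OE. It reached 71.3% on SETDB1 OE replicate 1 and 41.5% on SETDB1 OE replicate 2.

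**Figure D3:**
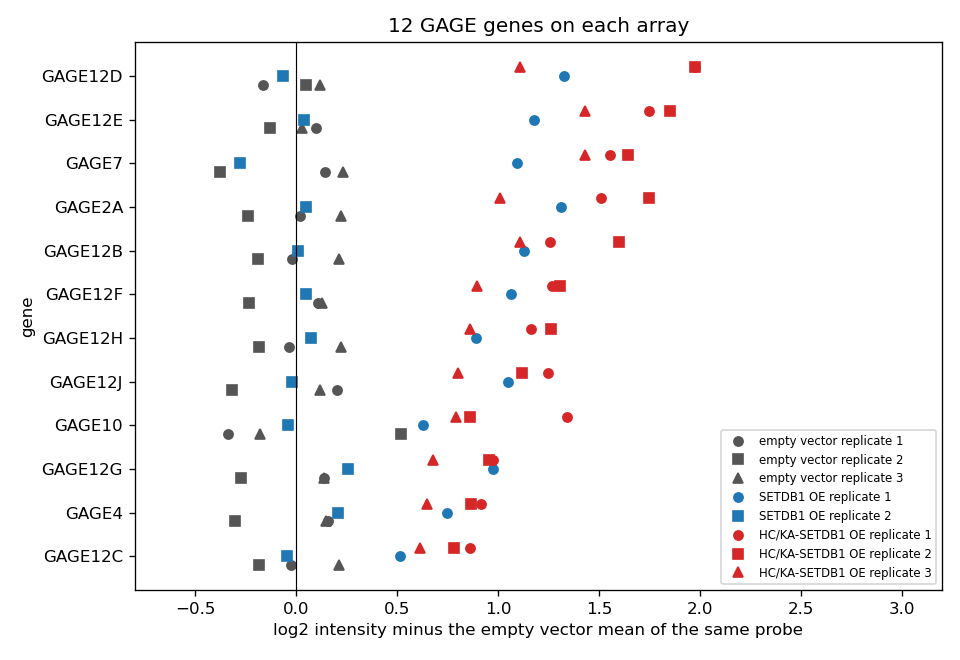
Difference of each of 12 GAGE genes on each array from its own empty vector mean, in log2 units, by group. All 12 lie above 0 on the 3 HC/KA-SETDB1 OE arrays and on SETDB1 OE replicate 1, while on SETDB1 OE replicate 2 they centre near 0.02.

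Over the whole list of GAGE, PAGE and XAGE relatives outside the members, 13 of the 16 genes on the array were tested and none rose or fell in any comparison by limma. Their median log2 difference was 0.49 for the arrays labelled SETDB1 OE against empty vector and 1.06 for HC/KA-SETDB1 OE against empty vector. PAGE4, a family member known from prostate, was detected on no array. XAGE1B gave differences from empty vector of 0.22 in the SETDB1 OE-labelled arrays and -0.09 with HC/KA-SETDB1 OE, and XAGE2 gave 0.35 and 0.13. Both lay near the detection limit. XAGE1B was detected on 2 empty vector arrays, 1 array labelled SETDB1 OE and 0 HC/KA-SETDB1 OE arrays. XAGE2 was detected only on the 2 arrays labelled SETDB1 OE and passed the filter only through them. Its other probes were detected on no array.

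Other cancer-testis genes of the array gave the following values. Of 68 other X-linked cancer-testis genes on the array 42 were tested, with a median log2 difference of 0.14 for the arrays labelled SETDB1 OE against empty vector. There 5 rose and 0 fell, beside 0.265% of all tested genes called in either direction. The 4 with the smallest adjusted p were sperm-protein genes of the SPANX family, such as SPANXA1 at 3.42 and SPANXC at 2.95. In HC/KA-SETDB1 OE against empty vector 0 rose and 0 fell, with a median of -0.01, MAGEC1 at 1.43 (limma adjusted p = 0.0874) and FMR1NB at -1.07 (adjusted p = 0.122) in the same fit. Of 29 tested autosomal cancer-testis genes, 1 fell in that comparison, in which 0.322% of all tested genes were called in either direction. The gene that fell was OIP5, which takes part in loading the centromere histone, at -1.32 (limma adjusted p = 0.0226). None of these 29 was called by limma for the SETDB1 OE-labelled arrays against empty vector, and the median was 0.02.

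By position, the members lie in 2 clusters on the X chromosome, in the gene order of GRCh38.p14. The GAGE genes and PAGE1 lie between PPP1R3F and USP27X, and PAGE2B, PAGE2, PAGE5 and PAGE3 lie between ALAS2 and MAGEH1, with VCF2 between PAGE2 and PAGE5. The 4 protein-coding genes on each side, and VCF2, were compared after the members' values had been seen. Around the GAGE cluster 6 neighbours were measured and 0 were called in HC/KA-SETDB1 OE against empty vector, with differences of -0.15 to 0.27. Around the PAGE cluster 7 were measured. Of these 1 was called in HC/KA-SETDB1 OE against empty vector, beside 0.322% of all tested genes. TRO, a gene of the MAGE family, was at -1.38 (SE 0.23, limma adjusted p = 0.0411) in HC/KA-SETDB1 OE and at -0.55 in the arrays labelled SETDB1 OE. With HC/KA-SETDB1 OE it lay lower than empty vector without overlap, as did 8.38% of all tested genes. Whether its call holds without single arrays was not examined. VCF2, which lies inside the cluster beside PAGE2, was at 0.17 with HC/KA-SETDB1 OE, and APEX2, an endonuclease gene of DNA repair, at -0.47.

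**Figure D4:**
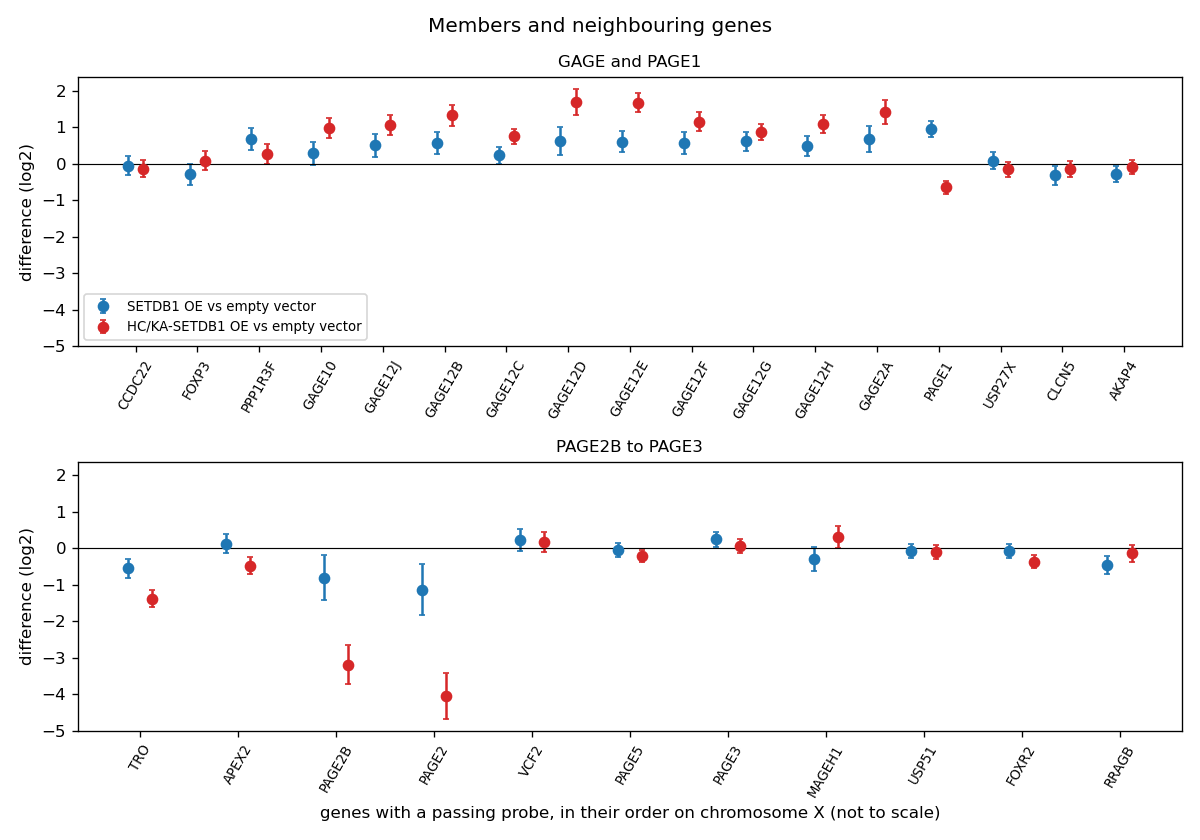
Log2 difference from empty vector, with bars of 1 SE, for members, GAGE relatives and neighbouring genes in their order along the X chromosome, not to scale. In HC/KA-SETDB1 OE the GAGE genes lie above 0 beside flanking genes between -0.15 and 0.27. There PAGE2 and PAGE2B lie below 0, with VCF2 at 0.17 and PAGE5 at -0.21. The measured neighbours of the PAGE cluster run from -1.38 (TRO) to 0.31 (MAGEH1).

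The genes most like PAGE2 over the 8 arrays, by Pearson correlation among 13968 tested genes that are no member, were FSTL5 (0.983), PLAAT3 (0.980), MRGPRX3 (0.965), ANAPC11 (0.963) and GALC (0.961). The 8 arrays share their group structure, so these values describe likeness of pattern. FSTL5, which encodes a secreted follistatin-like protein, was at 7.13, 7.17 and 6.36 with empty vector, 5.71 and 6.81 in the SETDB1 OE-labelled arrays and 4.53, 4.48 and 4.55 with HC/KA-SETDB1 OE. Like PAGE2 it was detected on no HC/KA-SETDB1 OE array. GALC, a lysosomal galactosylceramidase gene, was at 6.43, 6.92 and 6.08, then 5.55 and 7.12, then 4.53, 5.10 and 4.69 in the same order.

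The genes most like GAGE12E were FGF18 (0.983), GAGE12B (0.982), GAGE12F (0.982), GAGE12H (0.981) and GAGE7 (0.979), of which 4 are its own relatives. FGF18, a fibroblast growth factor gene outside the family, was at 6.18, 6.08 and 6.2 with empty vector, 7.40 and 6.34 in the SETDB1 OE-labelled arrays and 7.89, 7.78 and 7.21 with HC/KA-SETDB1 OE. It showed the same split of the arrays labelled SETDB1 OE.

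Marker levels in the groups were as follows. Each sum covers only the markers of its list that passed the filter on dim probes. Markers detected on no array are therefore in none of the sums. The summed linear level of the 7 melanoma lineage markers was 13136 to 19996 with empty vector, 6342.1 to 6531.3 in the SETDB1 OE-labelled arrays and 7626.9 to 12355.8 with HC/KA-SETDB1 OE. Of the 7 fibroblast markers, COL1A2 and LUM were detected on all 8 arrays and THY1 on none. The sum of those that passed was 1101.1 to 1842.1, 890.9 to 1690.7 and 2235.9 to 2490 in the same order. It was thus higher on every HC/KA-SETDB1 OE array, beside higher GAGE12E and lower PAGE2 and PAGE2B. Of the 9 testis and germ cell markers, none was detected on all 8 arrays and 4 were detected on no array. The sum of those that passed was 56.3 to 72.7, 86.9 to 100.4 and 44.3 to 63.7. It was highest in the arrays labelled SETDB1 OE. The lowest signal detected on an array was a log2 level of 4.52 to 4.58, so linear sums this small come from few dim probes. Of the 7 epithelial markers, none was detected on all 8 arrays, and KRT5, KRT19 and CDH1 were detected on no array. The sum of those that passed was 47.8 to 60.8, 48.7 to 52.8 and 43.7 to 48.4. These sums too come from few probes, near background. Of the 7 blood and endothelial markers on the array, CD14 was detected on all 8 arrays, and CD3E and CDH5 on none. The sum of those that passed was 90.4 to 102.1, 79.3 to 87.2 and 102.1 to 132.7. The part of these markers in the members' values was not tested.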

How the data were processed

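The authors deposited, per probe and array, a bead intensity on a linear scale with no normalization, and a detection p-value beside it, per the file headers. A second table that the authors deposited holds processed log2 values, whose columns each have a median of 6.53 and follow the raw log2 intensities (lowest r = 0.9996), with no background correction visible. No source used here names its software. It served as an alternative.

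Of 48107 probes, 5 with a missing cell were left out. Symbols came from the platform annotation, updated by gene identifier with RefSeq (GRCh38.p14): 30110 probes had 1 symbol, 8 several and 17984 were not listed. Intensities were corrected and quantile-normalized with neqc (offset 16) in limma 3.58.1 under R 4.3.3. Probes detected at p under 0.05 on at least 2 arrays (26689) were kept, and each gene was represented by its passing probe with the highest mean (13974 genes). Groups were compared with limma on all 8 arrays, two-sided, with Benjamini-Hochberg adjustment over all genes and a call at 0.05. Where a gene was undetected in a whole group, its fold is a bound against the higher of its own signal and the lowest detected signal. The sample descriptions in the labels place all 8 arrays on 1 chip, so chip could not be tested as a batch. The number of arrays limits precision. Plots used matplotlib 3.10.9 under Python 3.11.15, and Biopython 1.88 aligned promoters.

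The members and lists were chosen with earlier results of these data known. All members were named, any measured relative could be named, up to 4 genes per other list with the smallest adjusted p, the 5 genes most like PAGE2 and GAGE12E, and SETDB1. The replicate numbers in the titles were not taken as pairs in the main fit. For empty vector and HC/KA-SETDB1 OE, deviations of same-numbered arrays correlated at 0.459, 0.189 and 0.145. Replicate 3 of empty vector correlated at 0.365 with replicate 2 of HC/KA-SETDB1 OE, above the 0.189 and 0.145. Deviations of the arrays labelled SETDB1 OE correlated with same-numbered arrays at 0.147 and 0.119 for empty vector, and at 0.116 and 0.031 for HC/KA-SETDB1 OE. Alternatives changed the background correction, scaling, filter, probe choice, weights, arrays in the fit and the replicate block, and left out each array in turn.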

Additional observations from a re-analysis of the deposited data

How the results depend on the processing

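Of the 6 members, 0 were called in the arrays labelled SETDB1 OE against empty vector, and 1 with array weights (PAGE1); leaving out each array kept 0. In HC/KA-SETDB1 OE against empty vector 3 were called, against 0 with no background correction, an offset of 50, the authors' values or no filter, and 1 when probes were tested separately (PAGE2); leaving out each array gave 0 to 3. PAGE2 there was -2.42, -2.88 and -2.34 with no background correction, the offset of 50 and the authors' values. Between the arrays labelled SETDB1 OE and HC/KA-SETDB1 OE 2 were called. The count was 1 (PAGE1) with no background correction, the offset of 50, the authors' values, no filter, separate probes or only those groups in the fit, and 3 with scaling to the 75th percentile, array weights or the replicate block. Leaving out each array gave 0 to 3. The cause was not tested. Blocking on the replicate number, 0, 3 and 3 members were called in the 3 comparisons, PAGE2B being added in the last (2.10, adjusted p = 0.0149 by limma), and no other member's call changed. Directions turned only in values not called: PAGE3 with 75th percentile scaling (-0.01 and -0.22 against empty vector) and, leaving out 1 array, PAGE3 in HC/KA-SETDB1 OE against empty vector (-0.0019 to 0.18), and in the arrays labelled SETDB1 OE PAGE2B (-1.85 to 0.25) and PAGE5 (-0.09 to 0.00085). PAGE3 was not tested under the stricter filter. Over all genes, called counts also moved by more than 1.5 times. For SETDB1 OE against empty vector 37 became 16 with the offset of 50, 23 with the authors' values, 16 with no filter, 140 with array weights, 155 with only those groups and 11 to 103 leaving out each array. For HC/KA-SETDB1 OE against empty vector 45 became 18 with no background correction, 9 with the offset of 50, 17 with the authors' values, 6 with no filter, 96 with array weights, 127 with the replicate block and 2 to 255 leaving out each array. For SETDB1 OE against HC/KA-SETDB1 OE 606 became 274 with no filter, 1159 with array weights, 168 with only those groups and 41 to 1315 leaving out each array. Signal near background limits PAGE1 and PAGE3.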
